A study of Mus musculus with 13 samples.

Results

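The 10 genes Ptgs1, Ptgs2, Ptges, Ptgis, Ptgds, Tbxas1, Hpgd, Alox5, Alox5ap and Ltc4s, which make or break down prostaglandins and leukotrienes, were taken by symbol from the 20270 genes measured by RNA sequencing in mouse lung, in a study of the part CB1R plays in lung fibrosis. RNA came from the lower right lobe of 13 mice in 3 groups. Control mice (n = 4, numbers 3, 21, 24 and 26) were wildtype (WT) C57BL/6J mice that received the saline vehicle. WT bleomycin mice (n = 5, numbers 4, 2, 5, 4-B2 and 7) were WT C57BL/6J mice, and CB1R KO bleomycin mice (n = 4, numbers 8, 9, 10 and 11) carried Cnr1-/-, the deletion of the gene of the cannabinoid receptor CB1R, on a C57BL/6J background. Both bleomycin groups received a single oropharyngeal dose of 1 U per kg of bleomycin, a DNA-damaging drug that scars the lung, 14 days before the lungs were taken. The C57BL/6J mice were males of 13 weeks, and the age and sex of the CB1R KO mice are not given separately. No knockout lungs free of bleomycin were analysed here, so an effect of the deletion alone and an effect on the response to bleomycin cannot be told apart. A rise or fall given below for CB1R KO lungs is against these WT controls.

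Arachidonic acid, released from membrane phospholipids, enters both branches of the pathway. Cyclooxygenases turn it into prostaglandin H2, and each terminal synthase then makes one end product: prostaglandin E2 (Ptges), prostacyclin (Ptgis), prostaglandin D2 (Ptgds) or thromboxane A2 (Tbxas1). Hpgd, which lung tissue makes in large amounts, starts the breakdown of prostaglandins. In the other branch, 5-lipoxygenase (Alox5) with its membrane partner FLAP (Alox5ap) makes leukotriene A4, which Ltc4s converts to leukotriene C4. Prostaglandin E2 is known to restrain lung fibroblasts, and the leukotrienes made from leukotriene C4 to contract airways and make vessels leak.

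Cyclooxygenase and thromboxane synthase transcripts rose in WT bleomycin lungs, and the prostaglandin-degrading enzyme fell. Of the 9 members that could be tested, 5 were higher after bleomycin in WT lungs than in controls (Ptgs1, Ptgs2, Ptges, Tbxas1 and Alox5ap), 2 were lower (Ptgis and Hpgd), and Alox5 and Ltc4s did not pass the test. Over the 15315 genes tested, 25% were called higher and 23.9% lower in that comparison, at a Benjamini-Hochberg adjusted p under 0.05 by the quasi-likelihood method of edgeR, whose adjusted p-values are given throughout. The median log2 fold change was 0.54 over the 9 members and -0.01 over all genes tested. In CB1R KO bleomycin against control lungs, 4 members were higher and 2 lower, beside 19% and 16.3% of all genes. Between CB1R KO and WT bleomycin lungs, 0 of the 9 members passed the test in either direction, beside 0.359% of all genes higher and 0.62% lower. Ptgds was filtered out before the test for its low counts.

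The promoters of 8 members are held in a RefSeq table of build GRCm38.p6, which is another build than the GRCm39 reference of the counts. The 250 bases before the start of transcription are shown for the cyclooxygenase that is known as inducible, for the terminal synthase and the breakdown enzyme with the largest fold changes among the members, and for the synthase that shares the cyclooxygenase's direction. Letters are in lower case with motif matches in capitals.
Ptgs2, chr1:150099781-150100030, plus strand: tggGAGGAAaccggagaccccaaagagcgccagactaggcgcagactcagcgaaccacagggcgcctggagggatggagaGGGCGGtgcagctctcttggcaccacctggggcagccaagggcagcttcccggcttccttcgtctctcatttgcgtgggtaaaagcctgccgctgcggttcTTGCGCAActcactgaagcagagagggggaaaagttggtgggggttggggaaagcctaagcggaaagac
Tbxas1, chr6:38918736-38918985, plus strand: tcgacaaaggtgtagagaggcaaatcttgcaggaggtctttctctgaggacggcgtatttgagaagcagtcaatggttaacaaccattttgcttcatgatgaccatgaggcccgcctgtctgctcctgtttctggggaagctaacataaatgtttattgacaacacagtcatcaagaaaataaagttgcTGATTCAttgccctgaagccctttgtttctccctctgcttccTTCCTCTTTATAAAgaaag
Hpgd, chr8:56294302-56294551, plus strand: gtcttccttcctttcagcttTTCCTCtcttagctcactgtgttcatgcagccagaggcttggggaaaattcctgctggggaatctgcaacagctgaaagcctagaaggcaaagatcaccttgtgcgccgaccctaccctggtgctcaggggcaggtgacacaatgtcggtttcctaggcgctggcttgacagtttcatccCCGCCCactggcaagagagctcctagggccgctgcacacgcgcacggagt
Ptges, chr2:30903298-30903547, minus strand: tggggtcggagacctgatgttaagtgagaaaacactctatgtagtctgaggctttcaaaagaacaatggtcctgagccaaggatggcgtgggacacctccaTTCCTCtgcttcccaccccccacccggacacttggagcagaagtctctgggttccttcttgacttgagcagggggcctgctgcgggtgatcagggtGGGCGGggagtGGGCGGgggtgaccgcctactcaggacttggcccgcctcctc

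Motifs were sought on both strands of these 250 bases. The C/EBP motif TTGCGCAA, held by 0.164% of 32851 promoters of the table, lies in Ptgs2 from 69 to 62 bases before the start, in 1 of the 8 members. The GC box GGGCGG, held by 32.7% of all promoters, lies in 4 members: in Ptgs2, in Alox5, on the reverse strand in Hpgd, and as 2 copies in Ptges at 53 and 42 bases before the start. The ETS core GAGGAA, held by 23.3% of promoters, lies in 6 members, Ptgs1, Ptgs2, Ptges, Tbxas1, Hpgd and Alox5. The TATA box letters TATAAA (12.4% of promoters) lie in Tbxas1 alone, from 11 to 6 bases before the start. A reverse-strand match overlaps them by all but 2 letters, next to a reverse-strand ETS core. The AP-1 motif TGANTCA (6.75%) lies in Ptgds and Tbxas1, and none of the 8 members held the E-box CACGTG (6.02%) or the CRE half-site TGACG (17.8%). The Tbxas1 window holds 43.6% G and C and the Ptgs2 window 61.6%, against a median of 52.4% over all promoters. The GC box and the ETS core lie in members that rose, in Hpgd, which fell, and in Alox5, which did not pass the test.

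Library totals lay between 14615904 and 16662580 estimated counts in 12 libraries, and CB1R KO library 11 held 53463884. Values below are CPM, in which each library's counts are set to a common total with TMM scaling, or TPM, which are also divided by transcript length and so allow genes to be compared. The lung markers were present, with type II cell markers summing to between 19090 and 37413 TPM. Cnr1 was counted in every library, at 1.62 to 4.10 CPM in control, 3.46 to 6.97 in WT bleomycin and 2.47 to 5.63 in the libraries labelled CB1R KO, so its counts do not check the genotype. Control libraries 3 and 26 stood apart in neutrophil markers, which summed to 1691 and 1382 TPM there and to 392 and 305 in control libraries 21 and 24. The same 2 libraries held more adipocyte marker RNA (257 and 233 TPM, against 83.9 and 67.2) and more cardiac muscle marker RNA (1181 and 1850 TPM, against 709 and 814). All 7 cardiac muscle markers were lower in WT bleomycin lungs, where they summed to between 138 and 527 TPM.

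Ptgs1, the cyclooxygenase that most tissues make constantly, was at 57.1, 93.4, 79.5 and 87.4 CPM in control libraries 3, 21, 24 and 26. It was at 151, 154, 155, 190 and 148 CPM in WT bleomycin libraries 4, 2, 5, 4-B2 and 7, and at 124, 134, 173 and 175 CPM in CB1R KO libraries 8, 9, 10 and 11. All 9 bleomycin libraries lay above all 4 control libraries. The rise in WT lungs was 2.01-fold (log2 fold change 1.01, standard error 0.14, adjusted p = 4.52e-05), and in CB1R KO lungs 1.91-fold (log2 fold change 0.93, standard error 0.15, adjusted p = 0.000251).

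Ptgs2, the inducible cyclooxygenase whose promoter is shown above, was at 15.1, 15.1, 17.4 and 19.5 CPM in the control libraries in the same order. It was at 21.9, 24.4, 24.8, 34.0 and 34.2 CPM in the WT bleomycin libraries, and at 36.4, 22.7, 15.4 and 13.8 CPM in CB1R KO libraries 8, 9, 10 and 11. The 5 WT bleomycin libraries lay above all controls, while the CB1R KO libraries spread from below the lowest control to above the highest WT bleomycin library. The rise in WT lungs was 1.66-fold (log2 fold change 0.73, standard error 0.24, adjusted p = 0.0222). It no longer passed without control library 3 (adjusted p = 0.0536), control library 21 (0.0583), WT bleomycin library 4-B2 (0.0535) or WT bleomycin library 7 (0.0524), without control libraries 3 and 26 together (0.0781), or within the libraries whose labels are in lower case (0.14), a style of the sample titles whose meaning is not given. Capital letters are in the labels of control library 26 and WT bleomycin libraries 4-B2 and 7, and of no CB1R KO library. The CB1R KO group did not pass the test against control, with a log2 fold change of 0.38 (95% interval -0.16 to 0.93, adjusted p = 0.261).

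Per length, Ptgs1 was the more abundant cyclooxygenase in every library. The TPM ratio of Ptgs1 to Ptgs2 lay between 6.03 and 9.87 in control, 6.88 and 10.1 in WT bleomycin and 5.44 and 17.9 in CB1R KO bleomycin libraries. The ratios of 17.9 and 17.4 belong to CB1R KO libraries 10 and 11, which had the lowest Ptgs2 of their group. Summed over both genes, control lungs held 46.9 ± 7.86 TPM of cyclooxygenase (SD, n = 4). WT bleomycin lungs held 94.7 ± 7.97 TPM (SD, n = 5), and CB1R KO bleomycin lungs 91.2 ± 10.9 TPM (SD, n = 4).

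**Figure D1:**
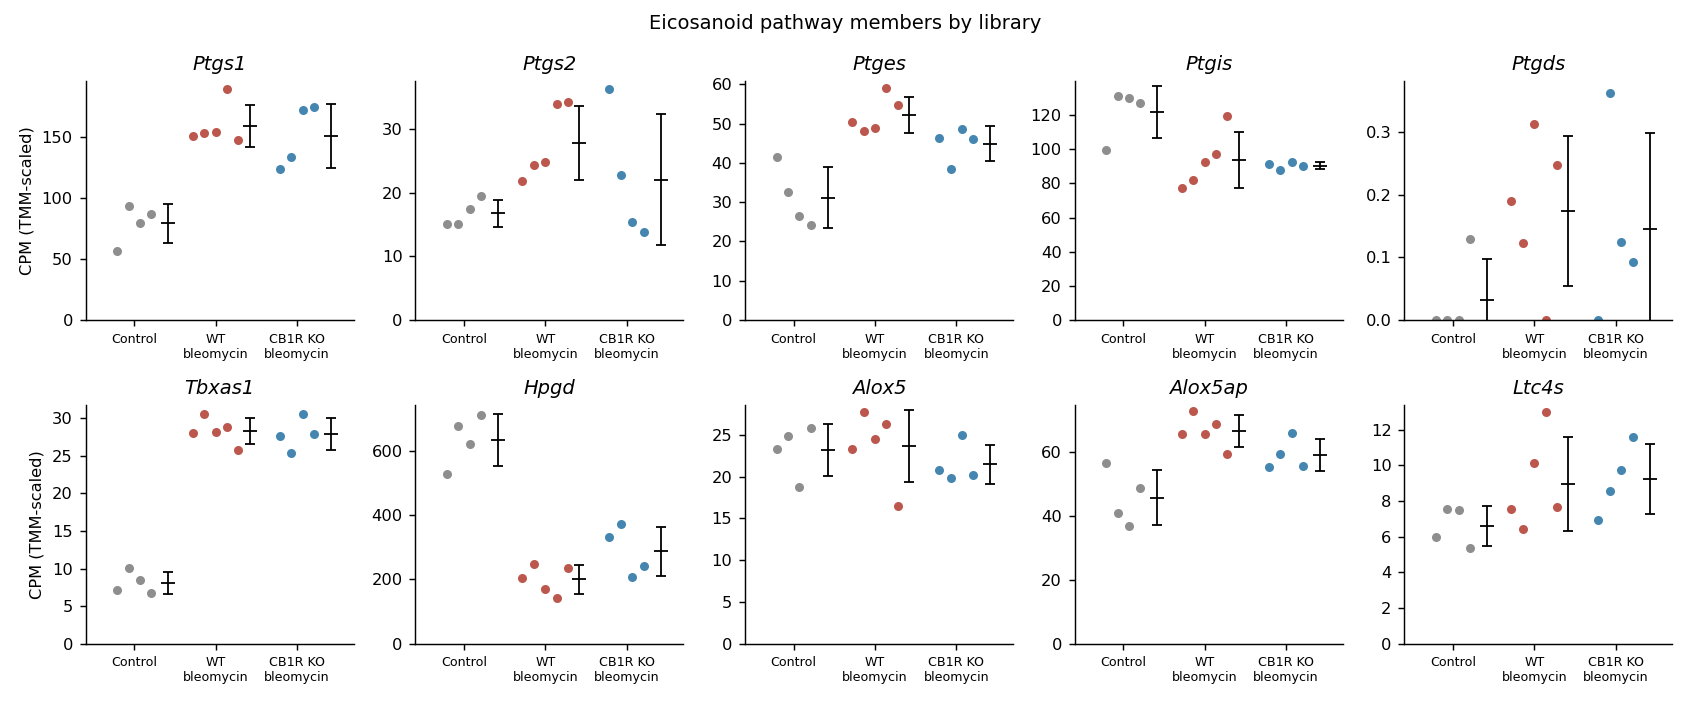
CPM of the 10 members in each library (points; grey control, red WT bleomycin, blue CB1R KO bleomycin) with the group mean and SD beside them (n = 4, 5 and 4; error bars are cut off at 0). Tbxas1 and Ptgs1 are higher and Hpgd is lower in all 9 bleomycin libraries than in any control library, and Ptgds stays under 0.4 CPM.

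Tbxas1, thromboxane synthase, had the largest rise among the members. It was at 7.13, 10.0, 8.45 and 6.77 CPM in control libraries 3, 21, 24 and 26, at 28.1, 30.6, 28.2, 28.9 and 25.7 CPM in WT bleomycin libraries 4, 2, 5, 4-B2 and 7, and at 27.7, 25.4, 30.6 and 27.9 CPM in CB1R KO libraries 8, 9, 10 and 11. The lowest bleomycin library was more than 2 times the highest control library, and the 2 bleomycin groups overlapped. The rise was 3.49-fold in WT (log2 fold change 1.80, standard error 0.11, adjusted p = 5.91e-08) and 3.44-fold in CB1R KO lungs (a log2 change of 1.78, standard error 0.11, adjusted p = 2.17e-07).

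Ptges, the inducible synthase of prostaglandin E2, was at 41.4, 32.5, 26.4 and 24.3 CPM in control libraries 3, 21, 24 and 26. It was at 50.4, 48.2, 48.9, 59.0 and 54.7 CPM in WT bleomycin libraries and at 46.4, 38.4, 48.7 and 45.9 CPM in CB1R KO libraries. Every WT bleomycin library lay above every control, and 3 of the 4 CB1R KO libraries did. The rise was 1.67-fold in WT (log2 fold change 0.74, standard error 0.13, adjusted p = 0.000343) and 1.44-fold in CB1R KO lungs (a log2 change of 0.52, standard error 0.14, adjusted p = 0.00893). Without control library 3 the log2 fold change in WT was 0.91. This is the control with the highest Ptges, so leaving it out had to raise the value.

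Ptgis, prostacyclin synthase, fell. It was at 99.5, 131, 130 and 127 CPM in control libraries 3, 21, 24 and 26, at 77.2, 81.8, 92.7, 97.2 and 120 CPM in WT bleomycin libraries 4, 2, 5, 4-B2 and 7, and at 91.3, 87.9, 92.6 and 90.0 CPM in CB1R KO libraries. Control library 3 lay apart from the other controls, and WT bleomycin library 7 lay above it, so these 2 groups overlapped, while all CB1R KO libraries lay below every control. The log2 fold change was -0.38 in WT (standard error 0.11, adjusted p = 0.0118) and -0.43 in CB1R KO lungs (standard error 0.12, adjusted p = 0.0116).

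Ptgds, the lipocalin-type prostaglandin D synthase, was counted at 0 in control libraries 3, 21 and 24 and at 2 estimated counts in control library 26. In the bleomycin libraries it had between 0 and 6.50 estimated counts, with 0 in WT bleomycin library 4-B2 and CB1R KO library 8. A count of 0 allows up to 3 counts by counting error, so no difference in Ptgds was detectable at this depth.

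The 4 terminal synthases summed to overlapping totals, 103 to 122 TPM in control, 110.1 to 140.2 in WT bleomycin and 110.4 to 125.3 in CB1R KO bleomycin libraries, but were split in other shares. Ptgis made up 77.6% to 86.4% of that sum in control, 58.7% to 67.6% in WT bleomycin and 60.8% to 65.1% in CB1R KO bleomycin libraries. The Tbxas1 share lay between 4.69% and 6.56% in control libraries, between 16.0% and 22.1% in WT bleomycin and between 19.4% and 22.4% in CB1R KO bleomycin libraries. The Ptges share was 8.65% to 16.7% in control, 15.9% to 19.7% in WT bleomycin and 14.7% to 16.6% in CB1R KO bleomycin libraries. Shares of Ptgis and Tbxas1 did not overlap between control and bleomycin libraries, while those of Ptges did through control library 3. These shares are descriptions of transcripts, with no test.

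Hpgd, the dehydrogenase that inactivates prostaglandins, was the most abundant member per length in all 3 groups and the one with the largest fall. It was at 527, 676, 621 and 712 CPM in control libraries 3, 21, 24 and 26, at 204, 249, 170, 142 and 234 CPM in WT bleomycin libraries 4, 2, 5, 4-B2 and 7, and at 331, 371, 207 and 242 CPM in CB1R KO libraries 8, 9, 10 and 11. Every bleomycin library lay below every control, and CB1R KO libraries 8 and 9 lay above every WT bleomycin library while libraries 10 and 11 lay among them. The log2 fold change was -1.67 in WT lungs (standard error 0.18, adjusted p = 4.92e-06), a level of 0.315 times the control, and -1.14 in CB1R KO lungs (standard error 0.19, adjusted p = 0.000441), or 0.454 times the control. For each TPM of both cyclooxygenases together there were 11.8 to 14.2 TPM of Hpgd in control libraries, 1.21 to 2.65 in WT bleomycin and 2.04 to 4.51 in CB1R KO bleomycin libraries.

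**Figure D2:**
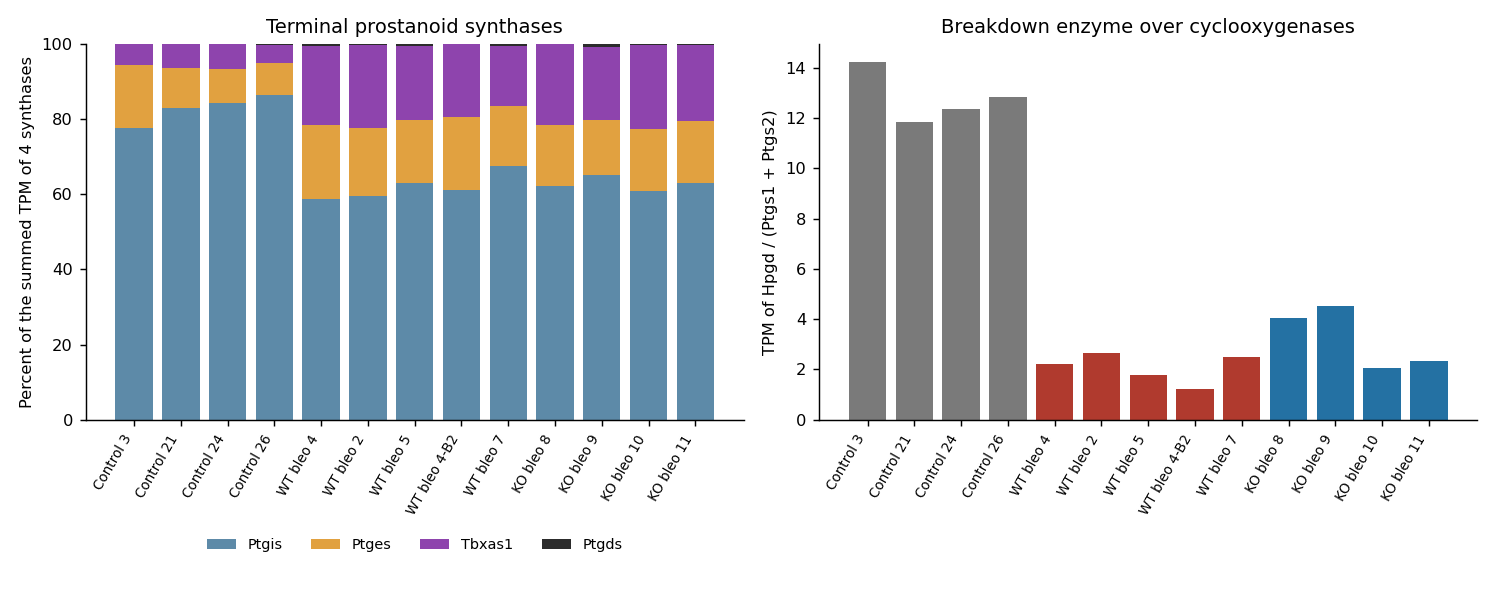
Left, each library's summed TPM of 4 terminal synthases split by gene, in percent. Right, TPM of Hpgd divided by the summed TPM of Ptgs1 and Ptgs2 in each library, as bars from 0 (grey control, red WT bleomycin, blue CB1R KO bleomycin). Control libraries hold 11.8 to 14.2 TPM of Hpgd per cyclooxygenase TPM, and no bleomycin library holds more than 4.51.

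In the leukotriene branch, Alox5ap rose and its partner Alox5 did not pass the test. Alox5ap was at 56.5, 41.0, 36.8 and 48.6 CPM in control libraries 3, 21, 24 and 26, at 65.6, 73.0, 65.6, 68.6 and 59.2 CPM in WT bleomycin libraries 4, 2, 5, 4-B2 and 7, and at 55.3, 59.3, 65.9 and 55.5 CPM in CB1R KO libraries. All WT bleomycin libraries lay above the controls, and 2 of the 4 CB1R KO libraries did. The rise was 1.45-fold in WT (log2 fold change 0.54, standard error 0.11, adjusted p = 0.000926) and 1.29-fold in CB1R KO lungs (a log2 change of 0.37, standard error 0.11, adjusted p = 0.0212). The latter did not pass without control library 21 (adjusted p = 0.0648), control library 24 (0.0665) or CB1R KO library 10 (0.0682). In WT lungs the log2 fold change was 0.77 without control libraries 3 and 26. These are the controls with the highest Alox5ap, so leaving them out had to raise it.

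Alox5, 5-lipoxygenase, was at 23.2, 24.9, 18.8 and 25.8 CPM in the control libraries, at 23.3, 27.7, 24.4, 26.3 and 16.5 CPM in WT bleomycin libraries, and at 20.7, 19.8, 25.0 and 20.2 CPM in CB1R KO libraries. The 3 groups overlapped. Its log2 fold change was 0.03 in WT bleomycin against control lungs (95% interval -0.27 to 0.32, adjusted p = 0.88) and -0.11 in CB1R KO bleomycin against control (95% interval -0.42 to 0.20, adjusted p = 0.57). The TPM ratio of Alox5ap to Alox5 lay between 4.71 and 7.22 in control, between 7.75 and 11.9 in WT bleomycin and between 7.42 and 10.3 in CB1R KO bleomycin libraries, so the bleomycin libraries stood above the controls.

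Ltc4s, leukotriene C4 synthase, was at 6.003, 7.57, 7.49 and 5.35 CPM in the control libraries, at 7.54, 6.42, 10.1, 13.01 and 7.65 CPM in WT bleomycin libraries, and at 6.93, 8.56, 9.75 and 11.6 CPM in CB1R KO libraries. The groups overlapped, and 3 libraries of each bleomycin group lay above all controls. The log2 fold change was 0.44 in WT (95% interval -0.02 to 0.89, adjusted p = 0.102) and 0.49 in CB1R KO lungs (95% interval 0.02 to 0.96, adjusted p = 0.0944). DESeq2 on the CB1R KO bleomycin and control libraries alone called the latter (adjusted p = 0.0495).

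Ordered by mean TPM, Hpgd stood first in every group, at 595 ± 64.0 in control (SD, n = 4), 193 ± 46.2 in WT bleomycin (SD, n = 5) and 285 ± 77.4 in CB1R KO bleomycin lungs (SD, n = 4), apart from the next gene in each. In control lungs Ptgis (94.0 TPM) and Alox5ap (70.2) followed and overlapped each other, then Ptgs1 (41.4). In both bleomycin groups the means of Alox5ap and Ptgs1 stood above that of Ptgis, and the libraries of Ptgs1 and Ptgis overlapped. Ptgs2 and Ptgds came last in each group, and Ptgs2 overlapped the gene above it, Tbxas1 in control and Alox5 in bleomycin lungs.

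**Figure D3:**
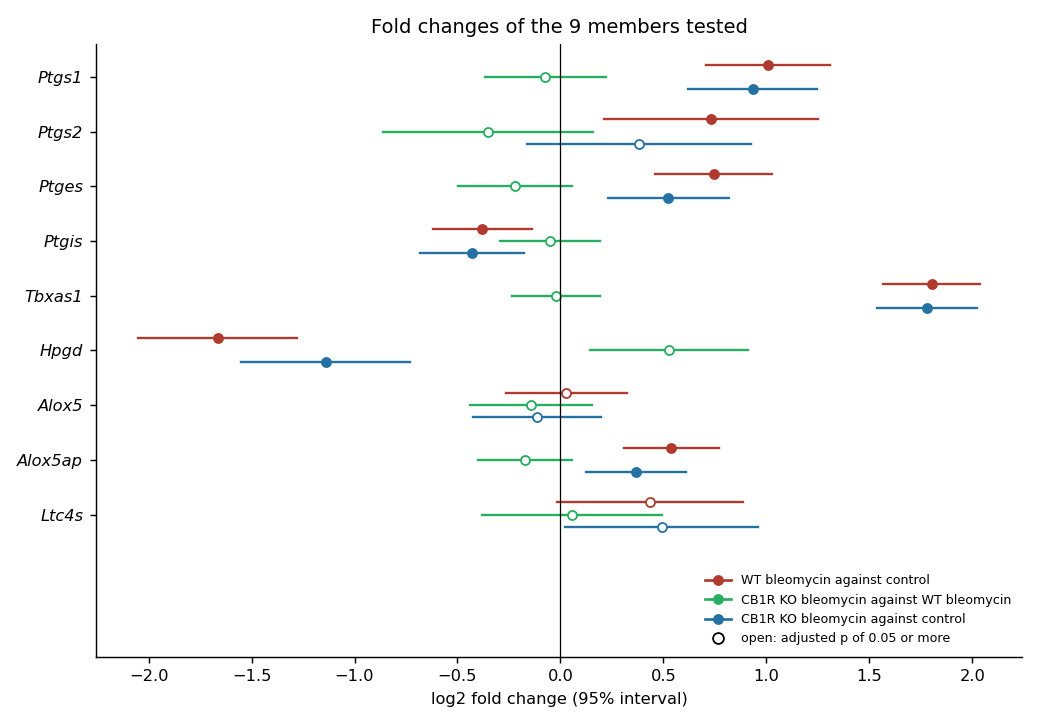
Log2 fold changes of the 9 members tested, with 95% intervals, in the 3 comparisons. Filled points passed an adjusted p of 0.05. No member passed between CB1R KO and WT bleomycin lungs, where the interval of Hpgd, 0.14 to 0.91, lies above 0 before adjustment.

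CPM of 6 of the 9 members did not overlap between WT bleomycin and control lungs, against 40.3% of all genes tested, and CPM of 0 of the 9 did not overlap between CB1R KO and WT bleomycin lungs, against 5.6%. In the latter comparison edgeR gave an unadjusted p under 0.05 for 1 member, Hpgd (log2 fold change 0.53, 95% interval 0.14 to 0.91, adjusted p = 0.157). Over all genes, 2608 of the 15315 tested had an unadjusted p under 0.05 there. DESeq2 on all libraries and limma on log2(TPM + 1) also called 0 members. The other 8 members had intervals that include 0, the narrowest for Tbxas1 (-0.24 to 0.19) and the widest for Ptgs2 (-0.86 to 0.16). The intervals of Ptgs1 (-0.37 to 0.22), Ptges (-0.50 to 0.06), Alox5ap (-0.40 to 0.06) and Ltc4s (-0.38 to 0.49) leave room for changes in both directions. The comparisons of the bleomycin groups with control share their 4 control libraries.

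In whole-lung RNA, a change in the number of cells of a type and a change in RNA per cell cannot be told apart, so marker levels are set beside the members here, and their part in the results was not tested. With Tbxas1, Ptgs1 and Alox5ap, all 9 markers of monocyte-derived and interstitial macrophages rose in WT bleomycin lungs, as they did in CB1R KO bleomycin lungs. Their summed TPM was 1009 to 1172 in control, 5368 to 5856 in WT bleomycin and 3680 to 5922 in CB1R KO bleomycin libraries. The other 2 lists of this lineage went otherwise in WT bleomycin lungs. Of 8 alveolar macrophage markers 0 were called higher and 4 lower, and of 6 monocyte markers 1 higher and 3 lower. Platelets also hold Tbxas1 and Ptgs1, and 7 of 8 platelet and megakaryocyte markers were lower in WT bleomycin lungs, with sums of 82.9 to 142 TPM in control, 36.9 to 61.0 in WT bleomycin and 45.8 to 55.6 in CB1R KO bleomycin libraries.

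With Hpgd, 5 of 7 type II cell markers were lower in WT bleomycin than in control lungs, with sums of 31978 to 37318 TPM in control and 19090 to 22825 in WT bleomycin libraries. In CB1R KO bleomycin libraries they summed to between 23855 and 37413 TPM, and 3 of the 7 were higher than in WT bleomycin. Endothelial markers, 8 of 9 of which were lower in WT bleomycin than in control lungs, summed to 2134 to 2621 TPM in control, 1674 to 1874 in WT bleomycin and 1857 to 2031 in CB1R KO bleomycin libraries. With Ptgis, which fibroblasts and smooth muscle cells also make, 4 of 7 fibroblast markers were higher and 1 lower in WT bleomycin lungs, and the sums were 703 to 742 TPM in control, 2075 to 2804 in WT bleomycin and 1587 to 2316 in CB1R KO bleomycin libraries. Of the 6 smooth muscle markers 3 were higher and 1 lower in WT bleomycin lungs, and 0 higher and 1 lower in CB1R KO bleomycin against control. They summed to 509 to 622 TPM in control, 665 to 997 in WT bleomycin and 556 to 656 in CB1R KO bleomycin libraries.

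With the leukotriene genes, 5 of the 6 neutrophil markers tested were lower in WT bleomycin than in control lungs, with sums of 305 to 1691 TPM in control, 196 to 401 in WT bleomycin and 241 to 535 in CB1R KO bleomycin libraries. Of the 5 mast cell markers tested, 3 were lower, with sums of 79.7 to 86.4 TPM in control, 50.2 to 70.0 in WT bleomycin and 63.9 to 70.5 in CB1R KO bleomycin libraries. The mast cell tryptase Tpsab1 was under 0.1 TPM in every bleomycin library. Of the 4 eosinophil markers tested 0 were called, and their defining gene Epx was under 0.1 TPM in all 13 libraries. Some lists share a gene: Kit is on both the mast cell and the endothelial list, and Siglecf on both the eosinophil and the alveolar macrophage list.

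Beyond the members, 52 further genes of the same pathways, listed by role, were in the tables, and 44 of them were tested. In WT bleomycin against control lungs 14 were higher and 9 lower, 31.8% and 20.5% of those tested, beside the 25% and 23.9% of all genes. In CB1R KO bleomycin against control lungs 12 were higher and 7 lower, 27.3% and 15.9%, beside the 19% and 16.3% of all genes, so the share of lower genes lay near that of all genes. Genes of this list that did not pass are named below where they act next to a member, and were chosen after their values were seen.

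Among the 9 phospholipase genes tested, which release arachidonic acid and other fatty acids, 4 rose and 2 fell in WT bleomycin lungs. Pla2g4a, the cytosolic phospholipase A2 that supplies both branches, rose from a mean of 16.9 CPM (SD 2.27, n = 4) to one of 29.6 CPM (SD 4.04, n = 5; log2 fold change 0.81, adjusted p = 6.03e-05). Pla2g4c rose from a low level (log2 fold change 2.30, adjusted p = 0.00115), as did the lysosomal Pla2g15 (0.58, adjusted p = 9.97e-05) and the calcium-independent Pla2g6 (0.43, adjusted p = 0.00683). Pla2g6 did not pass without control libraries 3 and 26, where its log2 fold change was 0.20 (adjusted p = 0.142), or within the libraries with lower-case labels (adjusted p = 0.0627). The secreted phospholipases Pla2g1b (-1.51, adjusted p = 0.000133) and Pla2g12a (-0.34, adjusted p = 0.00876) fell. In CB1R KO bleomycin against control lungs the same directions were called for Pla2g4a, Pla2g15, Pla2g6, Pla2g1b and Pla2g12a, and Pla2g4c was at 0.94 with an adjusted p of 0.167. Of these, the call of Pla2g6 was lost in 8 of 26 alternatives, among them without control library 3 (adjusted p = 0.0867), control library 26 (0.0927), CB1R KO library 10 (0.0834) or CB1R KO library 11 (0.0628). The call of Pla2g1b was lost in 11 of 26, among them without control library 3 (0.053), 21 (0.104) or 24 (0.102), WT bleomycin library 4 (0.0522) or 5 (0.0543), or CB1R KO library 10 (0.12) or 11 (0.129). Pla2g5, a secreted phospholipase, was at 1.16 with an adjusted p of 0.0434 in that comparison, but did not pass in 15 of 25 alternatives. These include both DESeq2 fits (0.0654 and 0.0982), limma on both scales (0.13 and 0.105), no count filter (0.0603) and leaving out control library 21 (0.101), 24 (0.117) or 26 (0.0578), WT bleomycin library 2 (0.0529) or 7 (0.0536), or CB1R KO library 8 (0.103), 10 (0.0714) or 11 (0.0527).

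Hpgds, the haematopoietic prostaglandin D synthase, rose from between 2.05 and 4.10 CPM in control libraries to between 11.2 and 15.9 in WT bleomycin (log2 fold change 1.95, adjusted p = 1.24e-06). In CB1R KO bleomycin libraries it lay between 9.03 and 12.4 CPM (log2 fold change 1.69 against control, adjusted p = 1.56e-05). Its TPM, 0.868 to 7.15 over all libraries, exceeded that of Ptgds in each group. Of the 5 genes listed with it, Cbr1, a carbonyl reductase of prostaglandins, was called lower in WT bleomycin lungs (-0.24, adjusted p = 0.0424). This call was lost in 12 of 26 alternatives, with limma on both scales (0.0922 and 0.092), within the libraries with lower-case labels (0.0749) and without control library 3 (0.0655), 21 (0.073), 24 (0.0711) or 26 (0.0772), both of 3 and 26 (0.138), WT bleomycin library 4 (0.0975), 2 (0.0975) or 7 (0.0984), or CB1R KO library 10 (0.0507). The other prostaglandin E synthases Ptges2 (0.24, adjusted p = 0.0796) and Ptges3 (0.14, adjusted p = 0.152) did not pass the test.

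Among the 5 transport and breakdown genes tested, the prostaglandin exporter Abcc4 (log2 fold change 0.59, adjusted p = 0.000955) and the reductase Ptgr1 (0.65, adjusted p = 1.78e-05) rose in WT bleomycin lungs, and the reductases Ptgr2 (-0.25, adjusted p = 0.00482) and Cbr2 (-1.90, adjusted p = 1.77e-06) fell. Ptgr2 did not pass within the libraries with lower-case labels (log2 fold change -0.21, adjusted p = 0.059). Cbr2, a carbonyl reductase abundant in mouse lung, was at 2349 to 4570 CPM in control and at 838 to 1263 CPM in WT bleomycin libraries. The uptake transporter Slco2a1, which brings prostaglandins to Hpgd, had a log2 fold change of 0.02 (95% interval -0.21 to 0.24, adjusted p = 0.901) beside the fall of Hpgd.

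Receptors for prostaglandin E2 rose, and that for prostaglandin F2 alpha fell. All 4 prostaglandin E2 receptor genes were called higher in WT bleomycin lungs, with log2 fold changes of 0.45 for Ptger1 (adjusted p = 0.00971), 0.47 for Ptger2 (adjusted p = 0.00544), 1.81 for Ptger3 (adjusted p = 5.27e-05) and 1.62 for Ptger4 (adjusted p = 2.13e-07). Ptger2 did not pass without control libraries 3 and 26 (adjusted p = 0.125). Ptgir, the prostacyclin receptor, was at 0.62 (adjusted p = 0.0263), and did not pass without control library 24 (0.0821) or 26 (0.0862), both of 3 and 26 (0.0632), or WT bleomycin library 4 (0.063) or 2 (0.0665). Ptgfr, the prostaglandin F receptor, fell from a mean of 26.6 CPM (SD 7.12, n = 4) to one of 5.13 CPM (SD 1.99, n = 5; log2 fold change -2.37, adjusted p = 1.89e-05). The thromboxane receptor Tbxa2r had a log2 fold change of -0.27 (95% interval -0.66 to 0.13, adjusted p = 0.247) beside the rise of Tbxas1. In CB1R KO bleomycin against control lungs Ptger2, Ptger3 and Ptger4 were called higher and Ptgfr lower, and Ptger2 again did not pass without control libraries 3 and 26 (adjusted p = 0.0576).

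Of the 9 further genes of leukotriene synthesis and breakdown, 1 was higher and 2 lower in WT bleomycin lungs, and 6 did not pass. Ggt1, which removes the glutamate of leukotriene C4, fell (log2 fold change -1.21, adjusted p = 0.000285), as did the dipeptidase Dpep1 (-1.38, adjusted p = 2.6e-06), while the dipeptidase Dpep2 rose (1.12, adjusted p = 1.99e-06). Ggt5, which acts like Ggt1 on leukotriene C4, had a log2 fold change of -0.26 (95% interval -0.79 to 0.27, adjusted p = 0.415). Lta4h, which makes leukotriene B4, had a log2 fold change of 0.09 (95% interval -0.06 to 0.25, adjusted p = 0.321). Cysltr1, a receptor of the cysteinyl leukotrienes, rose (0.76, adjusted p = 0.00228), and Ltb4r1, a leukotriene B4 receptor, was at -0.07 (adjusted p = 0.785). Of the other lipoxygenases, Alox12, known from platelets, fell (-1.53, adjusted p = 1.81e-05), and Alox15 was at -0.02 (adjusted p = 0.963).

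**Figure D4:**
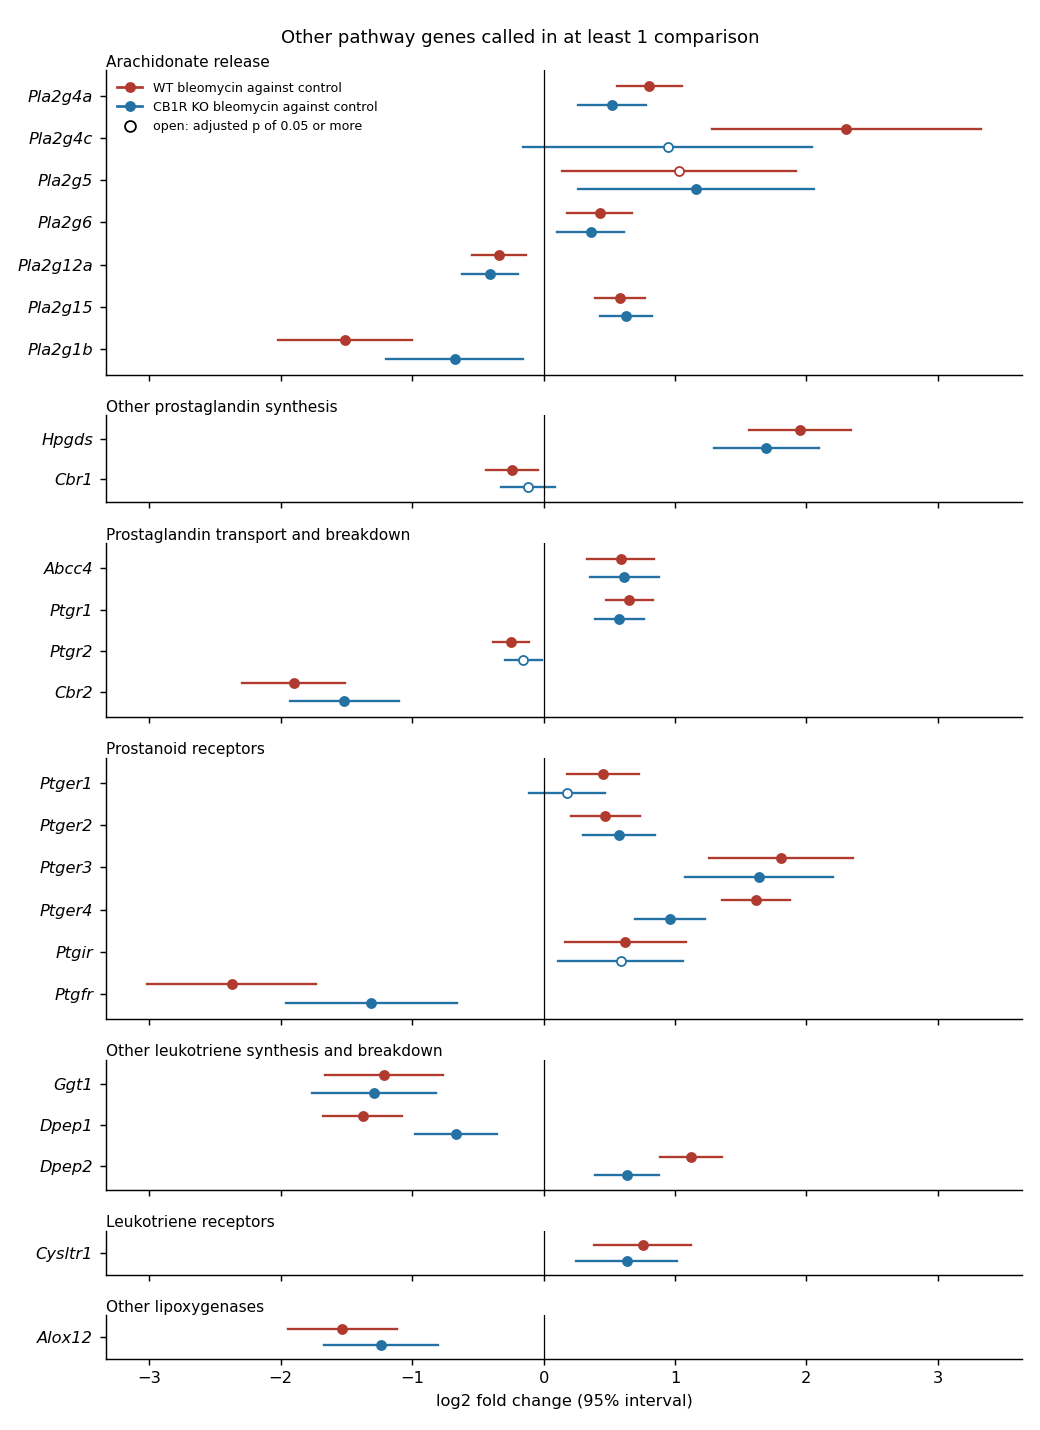
Log2 fold changes against control, with 95% intervals, of the 24 further pathway genes called in at least 1 comparison, by role. Filled points passed an adjusted p of 0.05. Ptgfr and Cbr2 lie furthest to the left among genes called in both comparisons, and Hpgds and Ptger3 furthest to the right.

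Between CB1R KO and WT bleomycin lungs, 3 of the 44 further genes passed the test, 1 higher and 2 lower. These are 2.27% and 4.55% of those tested, beside 0.359% and 0.62% of all genes. Ptger4, a prostaglandin E2 receptor that raises cyclic AMP, was at 31.3, 24.2, 32.4, 28.7 and 29.4 CPM in WT bleomycin libraries 4, 2, 5, 4-B2 and 7 and at 18.5, 16.8, 21.6 and 17.3 CPM in CB1R KO libraries 8, 9, 10 and 11, with controls between 7.96 and 10.9. All CB1R KO libraries lay below all WT bleomycin libraries and above all controls. The log2 fold change was -0.66 (standard error 0.11, adjusted p = 0.0219).

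Dpep2 was at 23.1, 24.5, 26.0, 31.3 and 26.0 CPM in WT bleomycin libraries and at 21.4, 19.0, 18.8 and 15.8 CPM in CB1R KO libraries, with controls between 11.1 and 13.01, again without overlap (log2 fold change -0.49, standard error 0.11, adjusted p = 0.0416). Dpep1 was at 63.7, 51.0, 54.5, 47.3 and 72.4 CPM in WT bleomycin libraries and at 102, 120, 70.6 and 85.6 CPM in CB1R KO libraries, with controls between 148.3 and 154.5. CB1R KO library 10 lay below WT bleomycin library 7, and the other CB1R KO libraries lay above the WT bleomycin group (log2 fold change 0.71, standard error 0.14, adjusted p = 0.0314). The mean of each of the 3 genes lay between the control and the WT bleomycin level in CB1R KO lungs.

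**Figure D5:**
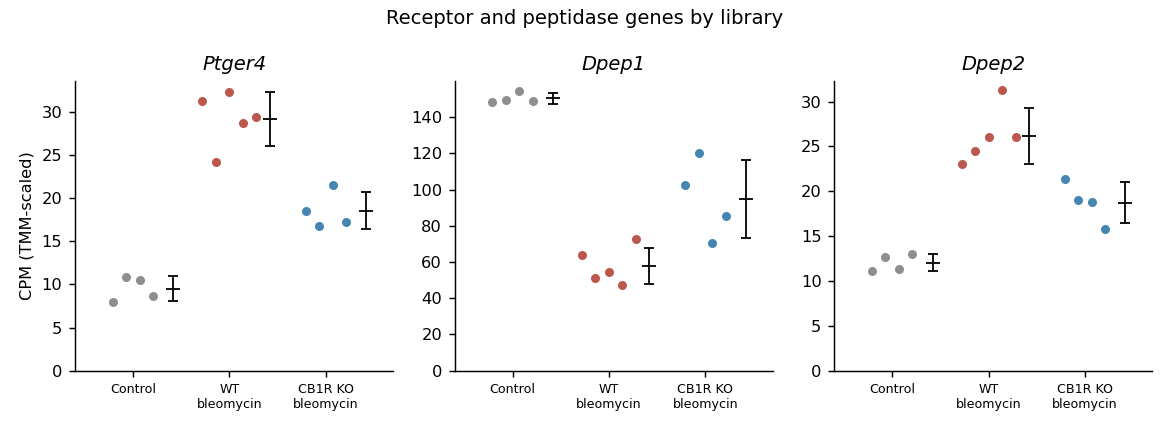
CPM of the 3 further pathway genes that passed the test between CB1R KO and WT bleomycin lungs, by library (points; grey control, red WT bleomycin, blue CB1R KO bleomycin), with group mean and SD (n = 4, 5 and 4). CB1R KO libraries of Ptger4 and Dpep2 lie below the WT bleomycin libraries without overlap.

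These calls depended on single libraries, while the log2 fold changes moved less. Without CB1R KO library 9, 8 or 11, or WT bleomycin library 5 or 4-B2, 0 of the 3 passed, with adjusted p for Ptger4 of 0.0867, 0.0781, 0.0753, 0.057 and 0.0554 and log2 fold changes of -0.62, -0.66, -0.62, -0.62 and -0.66. In those fits 2, 9, 3, 24 and 27 genes were called among all genes, against 150 with all libraries. Without WT bleomycin library 7, Ptger4 (0.0525) and Dpep2 (0.0998) did not pass, and without WT bleomycin library 2, Dpep1 (0.0679) and Dpep2 (0.0676) did not. Dpep2 also did not pass without control library 21 (0.0558), 24 (0.0594) or 26 (0.0504). In the libraries with lower-case labels alone, Ptger4 had a log2 fold change of -0.66 with an adjusted p of 0.131. Beside these differences, 3 of 7 type II cell markers and 2 of 9 T and NK cell markers were higher and 2 of 6 smooth muscle markers lower by the same test. Of the 9 monocyte-derived and interstitial macrophage markers and the 7 cardiac muscle markers 0 were called, with an unadjusted p under 0.05 for 4 and 6 of them. Also with 0 called, 5 of 6 ciliated cell and 4 of 5 adipocyte markers tested had such a p. So did 4 of 7 fibroblast and 4 of 8 alveolar macrophage markers, but 0 of 6 neutrophil and 0 of 8 platelet and megakaryocyte markers. Over all genes tested, 2608 of 15315 had one. T and NK cell markers summed to 55.3 to 86.3 TPM in WT bleomycin and 99.3 to 105.4 in CB1R KO bleomycin libraries, and cardiac muscle markers to 138 to 527 and 505 to 923 TPM. The part of these cells was not tested.

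For each of the 7 members called after bleomycin in WT lungs, the tested genes with the most similar pattern over the 13 libraries were found by the root mean square (RMS) difference of centred log2 CPM. For Tbxas1 they were Adamts2, a procollagen protease (RMS 0.13), and Ctsd, cathepsin D of lysosomes (0.18). For Ptgs1 they were Tceal9 (0.14) and the lysosomal tetraspanin Cd63 (0.15), and for Hpgd the endothelial lectin Clec14a (0.19) and the BMP mediator Smad9 (0.19). For Ptges they were Rhof (0.11) and the inflammasome adaptor Pycard (0.12), and Dpy19l3 (0.11) was among those of Alox5ap. For Ptgis they were Fign (0.08) and Deptor (0.09), whose log2 fold changes in WT bleomycin against control lungs were -0.38 and -0.29. For Ptgs2 the nearest genes, Epha2 (0.27) and the epithelial keratin Krt7 (0.28), lay further away than for any other member.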

How the data were processed

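RNA of 13 mouse lungs was sequenced by the authors as paired-end reads from poly(A)-enriched libraries. The authors quantified the reads with kallisto on Ensembl release 105 (GRCm39 per the labels), kept protein-coding transcripts, and deposited estimated counts and TPM summed per gene, not normalized between libraries. 1 column of the deposited TPM table matches no sample and was not used.

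Estimated counts were rounded, filtered with filterByExpr (15315 of 20270 genes kept), scaled by TMM and fitted in 3 groups with no covariates by edgeR 4.0.16 (quasi-likelihood test, R 4.3.3), with Benjamini-Hochberg adjustment over all genes tested at 0.05. Standard errors came from the fold change and its F statistic, and 95% intervals from the same fit. Library totals were 14615904 to 53463884 estimated counts, and standard errors of fold changes had medians of 0.11 to 0.12 (log2). Intervals cover the spread between libraries. The fit was tested on simulated data.

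The named genes were the 10 members, further pathway genes called in at least 1 comparison, Cnr1, and for each member called the 2 genes with the most similar pattern. Of the genes so selected, 1 is not reported. Slco2a1, Lta4h, Tbxa2r, Ltb4r1, Ptges2, Ptges3, Ggt5, Alox15 and the marker genes named fall outside that rule and were chosen after their values were seen. Members, lists and tests were chosen with earlier results of these data known. Alternatives were other filters and normalizations, DESeq2 1.42.0, limma 3.58.1 on log2(TPM + 1) and log2(TPM + 0.1), fits of 2 groups, the style of the sample labels, thinning of CB1R KO library 11 and each library left out.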

Additional observations from a re-analysis of the deposited data

Results flagged for a closer look

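Dixon's test over the 27 groups of member CPM values marked 2 libraries, where chance marks about 1 in 20 groups. Ptgs1 was at 190 CPM in WT bleomycin library 4-B2, while the other WT bleomycin libraries lay between 148 and 155. Ptgis was at 99.5 CPM in control library 3, while the other controls lay between 127 and 131, and this library also had the highest sums of neutrophil and platelet markers among the controls.

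By the direct edgeR test between the bleomycin groups, the level of 3 further pathway genes differed between CB1R KO and WT bleomycin lungs. All controls were WT, so an effect of the deletion alone and one on the response to bleomycin cannot be told apart. Over the alternatives, 34 of the 78 values of these 3 genes lost their call. The log2 fold change of CB1R KO against WT bleomycin was -0.66 for Ptger4 (adjusted p = 0.0219), 0.71 for Dpep1 (adjusted p = 0.0314) and -0.49 for Dpep2 (adjusted p = 0.0416). Of the 9 members tested, 0 differed in this way.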

How the results depend on the processing

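Over 26 alternatives, between 6 and 7 members were called in WT bleomycin against control lungs, between 5 and 7 in CB1R KO bleomycin against control, and 0 between the bleomycin groups. The alternative without control libraries 3 and 26 together was chosen after seeing the data. No paired analysis was possible because the groups share no replicate numbers. Of the 234 member values per comparison, 225, 230 and 222 kept their direction and side of the threshold, in WT bleomycin against control, CB1R KO bleomycin against control and CB1R KO against WT bleomycin. The lost calls were the 6 of Ptgs2 and the 3 of Alox5ap given above, and the cause was not tested.

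Values near 0 changed sign. Between CB1R KO and WT bleomycin, Ptgis had a log2 fold change of 0.0632 with the label style as a term, 0.11 in libraries with lower-case labels alone, 0.0126 with limma on log2(TPM + 0.1) and 0.0123 with limma on log2(TPM + 1), and Tbxas1 had 0.0903 and 0.0873 with limma on the same scales. With single libraries left out, the values ranged from -0.11 to 0.053 for Ptgis, -0.15 to 0.0107 for Ptgs1, -0.0674 to 0.0199 for Tbxas1 and -0.0818 to 0.23 for Ltc4s. Alox5 ranged from -0.0641 to 0.13 in WT bleomycin against control.

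Of the further pathway genes, 20 to 25 were called in WT bleomycin against control lungs and 15 to 21 in CB1R KO bleomycin against control. Of the values of the genes called, 21 of 597 and 37 of 493 lost their call in these comparisons and 34 of 78 between the bleomycin groups, and 0 changed direction. Between the bleomycin groups, against 3 with edgeR on all libraries, 6 were called by DESeq2 on all libraries or on 2 groups. There was 1 called by edgeR on 2 groups, by limma on either scale and with the label style as a term, and 0 in libraries with lower-case labels alone. The number called among all 15315 genes moved too, from 150 with edgeR on all libraries to 646 and 649 with the 2 DESeq2 fits. It was 87 with edgeR on 2 groups, 109 and 93 with limma on log2(TPM + 1) and log2(TPM + 0.1), and 6 in libraries with lower-case labels alone. With single libraries left out, between 0 (without CB1R KO library 8, 9 or 11, among others) and 5 (without CB1R KO library 10) of the further pathway genes were called. Without CB1R KO library 10, 659 of all genes were called. Among all genes, 41 were called between the bleomycin groups with the label style as a term, against 150 without it. The label style is not balanced between these groups. At a median standard error of 0.11 to 0.12 (log2) over all genes tested, small differences of the members between the bleomycin groups could not be detected. For members with wide intervals, such as Ptgs2 and Hpgd, larger differences could be missed too. Ptgds was too low to be compared.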
